A study of Mus musculus with 4 samples.

Results

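Retinoid metabolism and the retinoic acid response were followed through 6 genes, Dhrs3, Adh1, Cyp26b1, Rara, Tgm2 and Rai14, in C2C12 cells, a mouse myoblast line. The 6 were taken by symbol from the authors' deposited table of transcript clusters, which holds no fold change under 1.5 in size and, in its own unadjusted p-values, none above 0.049968. There 536 genes carried a single symbol, and each of the 6 had 1 cluster. A cut on p on these same arrays also favours genes whose replicates lie close together. Bex10 cells (2 arrays) spent 48 h after confluence in a basal adipogenesis medium with 10 µM of the compound labelled Bex, and Ctrl cells (2 arrays) spent the same time in that medium alone, so both groups had the adipogenic medium. The labels do not spell the compound out; what is known of the study identifies it as bexarotene, which activates retinoid X receptors (RXRs). RNA was hybridised to Affymetrix mouse gene arrays, and the deposited values are log2 signals after RMA (background correction, quantile normalization and a summary over probes), with medians of 5.77 and 5.76 on the Bex10 arrays and 5.78 and 5.80 on the Ctrl arrays over 35557 clusters. Nothing ties an array to either of the 2 batches of cells that the labels mention, so the spread between arrays may be technical in part. Because the 6 genes entered through their Bex10 against Ctrl difference on these same arrays, that difference is given as a description and carries no test.

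Vitamin A reaches cells as retinol, which alcohol and retinol dehydrogenases oxidise to retinaldehyde. Retinaldehyde dehydrogenases then make retinoic acid, reductases such as Dhrs3 turn retinaldehyde back into retinol, and the CYP26 enzymes break retinoic acid down. Retinoic acid binds the retinoic acid receptors, among them Rara, which act on DNA paired with an RXR, typically at direct repeats of a 6-base half-site. The same RXRs also pair with PPARs and other nuclear receptors. Dhrs3, Cyp26b1 and Tgm2 are known in several tissues as genes whose transcripts increase when retinoic acid is supplied, and Rai14 was named for its induction by retinoic acid in human retinal pigment epithelial cells.

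RefSeq promoter windows of build GRCm38.p6 ran from 250 bases before to 50 bases after a transcript start. For 5 of the 6 genes, all but Tgm2, 11 windows in all were on hand. They were searched on both strands for 3 half-sites, the consensus AGGTCA, the variant AGTTCA and the further variant GGTTCA, and for direct repeats of any of these with 1, 2 or 5 bases between. Half-sites, 6 in number, stood in 4 of the 11 windows, which belong to Rara and Rai14. Among all 32851 windows of the same length 35.0% held at least 1 of them, as did 32.4% of the 521 windows whose genes are in the authors' deposited table. No direct repeat was found in the 11 windows; repeats with 1 base between stood in 33 of the 32851 windows, with 2 bases in 69 and with 5 bases in 20 (0.0609%). The 4 windows with a match are shown 5′ to 3′ on the gene's strand, with the half-site in capitals. After them stand a window each of Dhrs3 and Adh1, the genes among the 6 with the largest difference in each direction, in which no half-site was found.
Rara chr11:98939461-98939760 (+ strand): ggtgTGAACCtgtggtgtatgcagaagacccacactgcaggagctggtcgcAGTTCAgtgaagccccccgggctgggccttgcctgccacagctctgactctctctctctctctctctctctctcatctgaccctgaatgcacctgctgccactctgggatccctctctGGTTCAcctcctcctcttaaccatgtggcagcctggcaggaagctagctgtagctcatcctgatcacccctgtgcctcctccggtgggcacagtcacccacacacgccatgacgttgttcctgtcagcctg
Rara chr11:98964622-98964921 (+ strand): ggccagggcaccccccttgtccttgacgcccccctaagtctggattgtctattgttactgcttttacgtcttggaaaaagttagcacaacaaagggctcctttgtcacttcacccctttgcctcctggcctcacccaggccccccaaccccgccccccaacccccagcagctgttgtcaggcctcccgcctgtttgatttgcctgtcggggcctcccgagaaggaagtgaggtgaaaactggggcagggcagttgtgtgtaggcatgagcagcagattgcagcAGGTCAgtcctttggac
Rai14 chr15:10713491-10713790 (- strand): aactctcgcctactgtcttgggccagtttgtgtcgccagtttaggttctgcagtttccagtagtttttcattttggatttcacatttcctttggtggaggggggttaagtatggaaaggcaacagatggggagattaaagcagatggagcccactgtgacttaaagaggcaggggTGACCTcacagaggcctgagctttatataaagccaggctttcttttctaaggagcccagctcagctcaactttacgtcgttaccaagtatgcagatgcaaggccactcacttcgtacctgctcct
Rai14 chr15:10714049-10714348 (- strand): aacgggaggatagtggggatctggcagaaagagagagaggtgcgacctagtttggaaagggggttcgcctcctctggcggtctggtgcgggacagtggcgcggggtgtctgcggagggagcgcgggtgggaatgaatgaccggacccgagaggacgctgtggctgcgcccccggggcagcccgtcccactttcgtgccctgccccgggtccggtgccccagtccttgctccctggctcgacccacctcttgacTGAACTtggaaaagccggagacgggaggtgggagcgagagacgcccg
Dhrs3 chr4:144892577-144892876 (+ strand): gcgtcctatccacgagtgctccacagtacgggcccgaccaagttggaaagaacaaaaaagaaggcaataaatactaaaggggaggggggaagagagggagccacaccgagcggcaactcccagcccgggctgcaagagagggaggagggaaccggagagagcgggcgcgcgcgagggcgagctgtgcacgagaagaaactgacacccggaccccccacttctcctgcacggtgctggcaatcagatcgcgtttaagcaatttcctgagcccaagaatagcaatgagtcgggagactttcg
Adh1 chr3:138277335-138277634 (+ strand): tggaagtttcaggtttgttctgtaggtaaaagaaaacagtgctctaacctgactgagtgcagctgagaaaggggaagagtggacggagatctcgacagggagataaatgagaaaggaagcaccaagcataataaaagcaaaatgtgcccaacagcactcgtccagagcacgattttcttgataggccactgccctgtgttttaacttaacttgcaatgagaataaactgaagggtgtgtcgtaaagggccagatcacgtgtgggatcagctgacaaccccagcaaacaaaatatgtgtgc

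In the Rara window that ends at base 98939760, GGTTCA on the opposite strand lay at bases -246 to -241 from the transcript start, AGTTCA at -199 to -194 and GGTTCA at -81 to -76. In the downstream Rara window AGGTCA lay at bases 34 to 39 of the transcript. The 2 Rai14 windows each held 1 half-site on the opposite strand, AGGTCA at -75 to -70 and AGTTCA at 4 to 9. The GC content of the 11 windows ran from 45.0% to 68.3%. A match is a run of letters and not a shown site of binding.

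**Figure D1:**
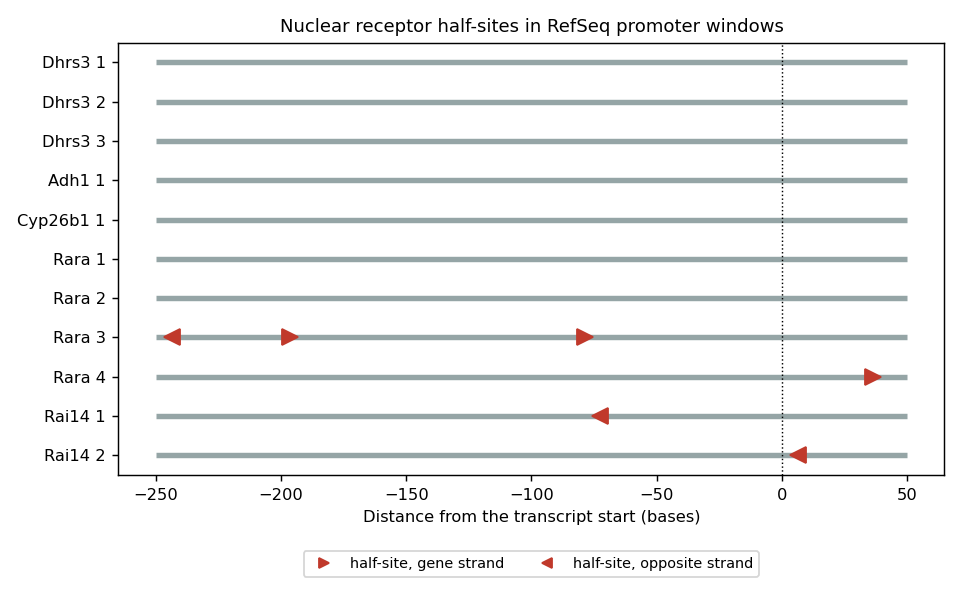
Positions of half-sites in the 11 RefSeq promoter windows of 5 retinoid genes. The x axis is the distance from the transcript start in bases, each grey bar is a window numbered by its order on the chromosome, and each triangle is a half-site pointing along the gene's strand or against it. Half-sites stand in 2 of the 4 Rara windows and in both Rai14 windows.

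The enzymes that handle retinol and retinaldehyde differed in opposite directions. Dhrs3, the retinaldehyde reductase, had log2 values of 11.79 and 11.85 on the Bex10 arrays, against 10.14 and 10.06 on the Ctrl arrays. Both Bex10 arrays lay above both Ctrl arrays, with 1.66 between the nearest pair, and the replicates of each group were within 0.07 of each other. The log2 difference was 1.72 ± 0.08 (SE of the limma fit over all clusters, n = 2 per group), or 3.30-fold higher with Bex. Its replicate SD, pooled over both groups, was 0.047 on the log2 scale, and 15.3% of all clusters had a smaller one. Dhrs3 was the tightest of the 6 genes: that share was 34.1% for Rara, 39.0% for Rai14, 67.3% for Tgm2, 70.6% for Cyp26b1 and 77.0% for Adh1.

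Adh1, a class I alcohol dehydrogenase that oxidises retinol as well as ethanol, had log2 values of 7.24 and 6.81 with Bex and 9.59 and 9.62 in Ctrl. Both Bex10 arrays were low, with 2.35 between the groups at their nearest, and the Bex10 arrays also stood further apart (0.43) than the Ctrl arrays (0.03). The log2 difference was −2.58 ± 0.17 (SE, n = 2 per group), 5.98-fold lower with Bex, and only 1 of the 35557 clusters had a more negative difference. Because the Bex10 arrays were apart, the size of the difference depended on the array, from 5.11-fold in the arrays numbered 1 to 7.0-fold in those numbered 2.

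Among the enzymes of retinoic acid breakdown, Cyp26b1 was higher with Bex, while Cyp26a1 and Cyp26c1 were not analysed here. Cyp26b1, a cytochrome P450 that hydroxylates retinoic acid, had log2 values of 7.21 and 6.96 on the Bex10 arrays, against 5.99 and 6.25 on the Ctrl arrays. The groups did not overlap, and the nearest arrays were 0.71 apart. The replicates were 0.25 apart in Bex10 and 0.26 apart in Ctrl, and only Tgm2 among the 6 genes had a wider gap in Ctrl. The log2 difference was 0.97 ± 0.15 (SE, n = 2 per group), or 1.95-fold higher, and it was 2.33-fold in the arrays numbered 1 but 1.64-fold in those numbered 2.

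The receptor went the other way from Cyp26b1. Rara, the retinoic acid receptor alpha, had log2 values of 8.97 and 8.81 with Bex and 9.49 and 9.54 in Ctrl. Both Bex10 arrays lay below both Ctrl arrays, by 0.52 at the nearest. The log2 difference was −0.62 ± 0.10 (SE, n = 2 per group), 1.54-fold lower, the smallest of the 6. It lay just inside the 1.5-fold threshold (0.585 on the log2 scale) that chose the genes, and in the arrays numbered 1 it was 1.43-fold, below that threshold. The authors' deposited table gives Rara a fold change of -1.52, where its smallest sizes are 1.51, for instance for Cpne2. The clusters nearest below the threshold and outside that table had a log2 difference of 0.5848 and are not named here.

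Of the remaining genes, Tgm2 and Rai14 were both higher with Bex. Tgm2, a transglutaminase that cross-links proteins, had log2 values of 8.66 and 8.82 on the Bex10 arrays, against 7.48 and 7.77 on the Ctrl arrays. The groups were 0.89 apart at the nearest, and the Ctrl arrays differed from each other by 0.29, the widest Ctrl gap among the 6 genes. The log2 difference was 1.12 ± 0.14 (SE, n = 2 per group), 2.17-fold higher, with 2.26-fold and 2.08-fold in the same-numbered arrays.

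Rai14, a protein of the actin cytoskeleton also called ankycorbin, had log2 values of 9.36 and 9.18 with Bex and 8.41 and 8.43 in Ctrl. The Ctrl arrays were 0.01 apart and the Bex10 arrays 0.18, and 0.75 separated the groups at their nearest. The log2 difference was 0.85 ± 0.10 (SE, n = 2 per group), 1.80-fold higher, with 1.93-fold and 1.68-fold in the same-numbered arrays.

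**Figure D2:**
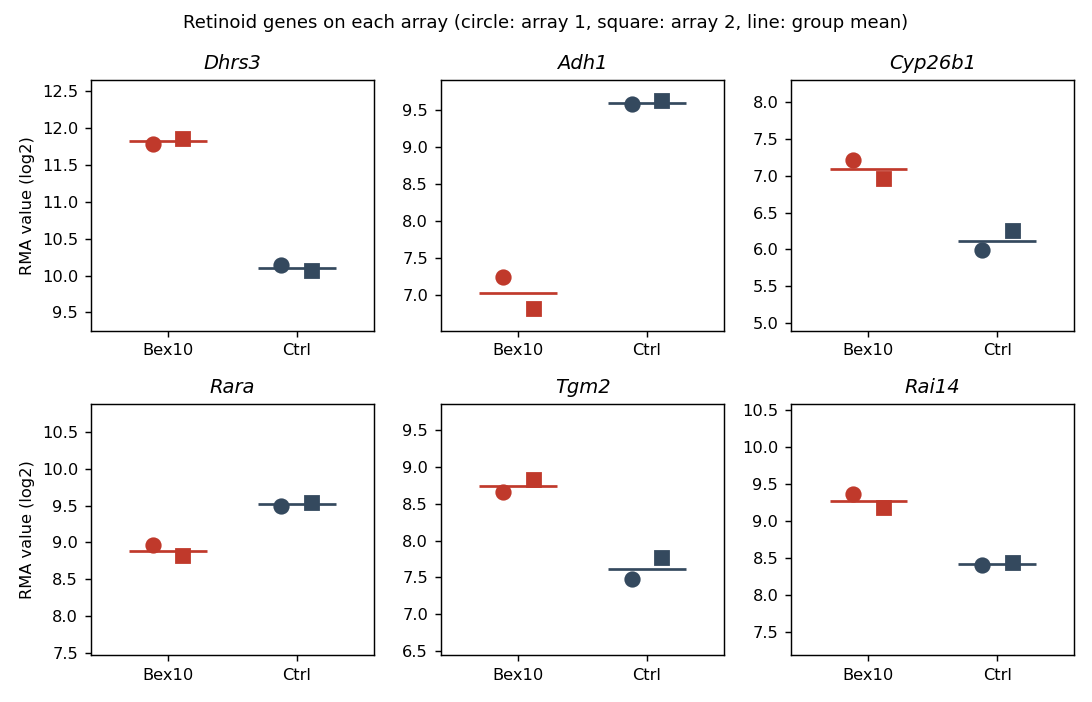
RMA log2 values (y axis) of the 6 retinoid genes on the 2 Bex10 and 2 Ctrl arrays, 1 panel per gene, each spanning the same range of log2 units. Circles are arrays numbered 1, squares are arrays numbered 2 and lines are group means; in every panel the groups are apart, by 0.52 for Rara at the least.

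Of the 6 genes 4 were higher and 2 lower with Bex, and in all 6 the groups did not overlap. Over all clusters 44.7% had groups that do not overlap, 20.6% with Bex10 higher and 24.2% with Bex10 lower, so with 2 arrays a group this separation alone is common. A difference of 1.5-fold or more in both same-numbered pairs was present in 5 of the 6, all but Rara, against 2.91% of all clusters. At an adjusted p of 0.05 limma called 0 of the 6 and 0 of 35557 clusters (0% called, with 4189 at an unadjusted p under 0.05). With a prior variance that follows the signal level, limma called 4 of the 6, Dhrs3, Adh1, Tgm2 and Rai14, and 1.20% of all clusters; with the replicate number as a block beside it (0.444% of all clusters called), Tgm2 and Rai14 were no longer called. Nothing is read from these counts for the 6 genes, since the same contrast chose them. Every value of the 6 was 5.99 or more, above the mean of 4.57 below which the dimmest 30% of clusters lie.

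**Figure D3:**
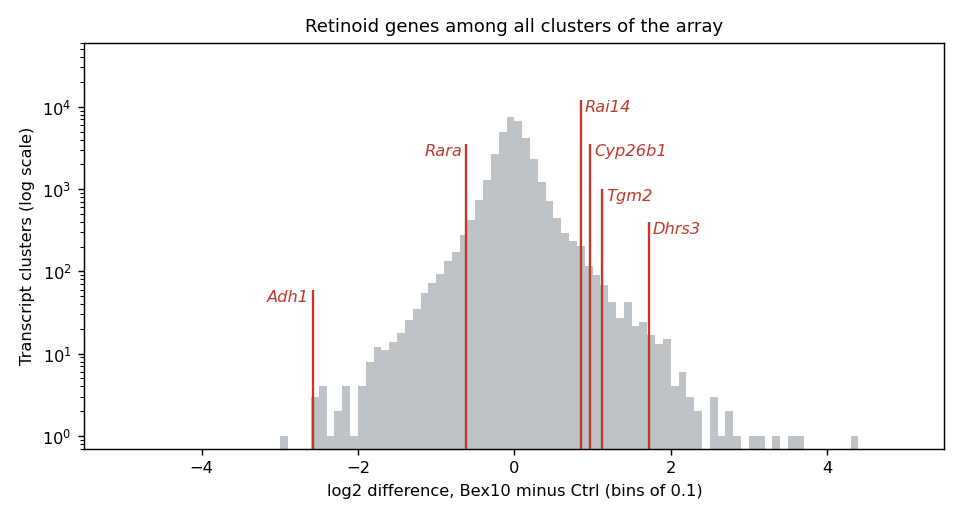
Histogram of the log2 difference, Bex10 minus Ctrl, over all 35557 clusters in bins of 0.1, with the y axis on a log scale; red lines mark the 6 retinoid genes. Adh1 at −2.58 stands at the edge of the lower tail, and Rara at −0.62 and Rai14 at 0.85 lie closest to the centre.

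By size of difference, the genes stood far apart from each other. Among clusters with Bex10 higher, Dhrs3 ranked 71, Tgm2 289, Cyp26b1 420 and Rai14 579. Among those with Bex10 lower, Adh1 ranked 2 and Rara 865. The authors' deposited table, whose log2 values are bi-weight averages per group, gives fold changes of 3.27 for Dhrs3, 2.30 for Tgm2, 2.06 for Cyp26b1, 1.80 for Rai14 and -6.25 for Adh1, where a minus sign marks Ctrl over Bex. The order of the 4 higher genes was the same in both sources.

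Of 149 genes listed for the retinoid pathway and its receptors, 14 had a cluster with their symbol in the authors' deposited table, 9 higher and 5 lower, and the other 135 were not analysed here. All 14 were therefore chosen by the same contrast. Limma called 0 of the 14, and with the variance trend 9, of which 6 were higher (0.762% of all clusters were called higher) and 3 lower (0.439% were called lower). With the replicate block added, which called 0.444% of all clusters, 5 of these 9 were called: Dgat1, Pparg, Dhrs3, Lpl and Adh1. Tgm2, Rai14, Cyp1b1 and Egr1 were not. Apart from the 6 genes above, 5 were higher and 3 lower.

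Among the enzymes of retinol and retinaldehyde, 3 of 30 were named, the third being Dgat1, which makes triglycerides and can also esterify retinol. Dgat1 had log2 values of 10.91 and 11.06 with Bex and 9.11 and 9.10 in Ctrl, a difference of 1.88 ± 0.09. Both Bex10 arrays were high, and the variance-trend fit called it. Of 12 genes of retinoic acid synthesis and breakdown, Cyp1b1, a P450 that can oxidise retinol, was named beside Cyp26b1. It had 9.47 and 9.60 with Bex and 10.20 and 10.10 in Ctrl, a log2 difference of −0.61 ± 0.10, and was called by the variance-trend fit, but not once the block was added. In the carrier and transporter list of 16, Lpl, the lipoprotein lipase that also frees retinol from chylomicron retinyl esters, was the only named gene. Its values of 11.36 and 11.32 with Bex against 9.85 and 9.88 in Ctrl gave 1.47 ± 0.08, with a call by the variance-trend fit.

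Rara was the only named gene of the 6 retinoid receptors, so no value of another RAR or of an RXR is given. Of 13 other receptors that pair with RXR or act beside it, Pparg, the nuclear receptor of fat cell formation, was named, with values of 9.60 and 9.63 with Bex and 7.84 and 7.69 in Ctrl. Its log2 difference of 1.85 ± 0.09 was of opposite sign to that of Rara, and the variance-trend fit called it. Among 15 receptor cofactors Ppargc1a, a coactivator of PPARG, was named at 5.26 and 5.60 with Bex against 4.77 and 4.79 in Ctrl (0.65 ± 0.14), without a call.

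The list of retinoic acid responsive genes had 7 named of 56, 5 higher and 2 lower. Beside Dhrs3, Tgm2, Cyp26b1 and Rai14 it held Ucp3, a mitochondrial uncoupling protein, at 6.92 and 6.66 with Bex against 5.67 and 5.45 in Ctrl (1.22 ± 0.14), not called. Egr1, an immediate early transcription factor, had 8.80 and 8.90 with Bex and 9.98 and 9.85 in Ctrl (−1.07 ± 0.10). The variance-trend fit called Egr1, but not once the block was added. Ccnd1, the cyclin of G1 phase, had 7.91 and 8.14 with Bex and 8.87 and 8.71 in Ctrl (−0.76 ± 0.13), not called. Many other signals are known to act on Ucp3, Egr1 and Ccnd1. Tgm2 was the only named transglutaminase of 9.

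**Figure D4:**
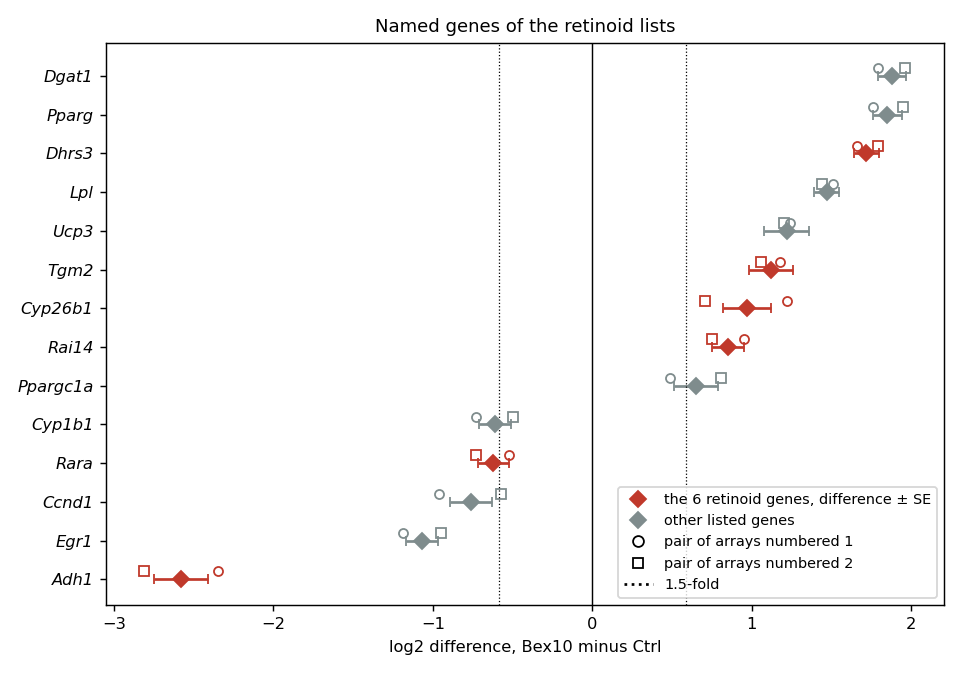
Log2 difference, Bex10 minus Ctrl, of the 14 named genes of the retinoid lists, ordered by size. Diamonds are group differences with the SE of the limma fit, open circles and squares are the differences in the arrays numbered 1 and 2, and dotted lines mark 1.5-fold; Rara, Cyp1b1, Ppargc1a and Ccnd1 each have 1 pair inside the dotted lines, and Adh1 lies furthest out.

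Likeness was measured as the root mean square distance between log2 values over the 4 arrays, each gene centred on its own mean, among named clusters. Closest to Dhrs3 were Ephx2, the soluble epoxide hydrolase, at a distance of 0.00768, and Smpx, a small muscle protein, at 0.0369. Ephx2 had log2 values of 11.34 and 11.37 with Bex and 9.66 and 9.59 in Ctrl, so its differences between arrays were nearly those of Dhrs3. Closest to Adh1 were Orm1, an acute-phase plasma protein, at 0.0940, and Ptn, a secreted growth factor, at 0.133. The distance is in log2 units, so it also depends on how alike the Bex10 against Ctrl differences are in size. Adh1, at -2.58, ranked 2 among clusters with Bex10 lower, and Orm1 and Ptn had -2.46 and -2.45. Few clusters could therefore lie near Adh1, and its distances cannot be set against those of Dhrs3. Cyp26b1 had Lgals3bp (0.0400) and the cytokine gene Il33 (0.0451) nearest to it, and both repeated its higher value on the Bex10 array numbered 1 and on the Ctrl array numbered 2. Nearest to Rara were the matrix gene Fbln1 (0.0196) and Pacs2 (0.0212). Tgm2 had Gpcpd1 (0.0408) and Cd24a (0.0412), and Rai14 had Ccdc141 (0.0175) and Dgke, a diacylglycerol kinase (0.0203). With 4 arrays and 545 clusters to choose from, close profiles are easily found, and likeness here describes these arrays alone. The 545 clusters were themselves chosen by the same contrast, so a small distance in part reflects a difference of similar size.

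**Figure D5:**
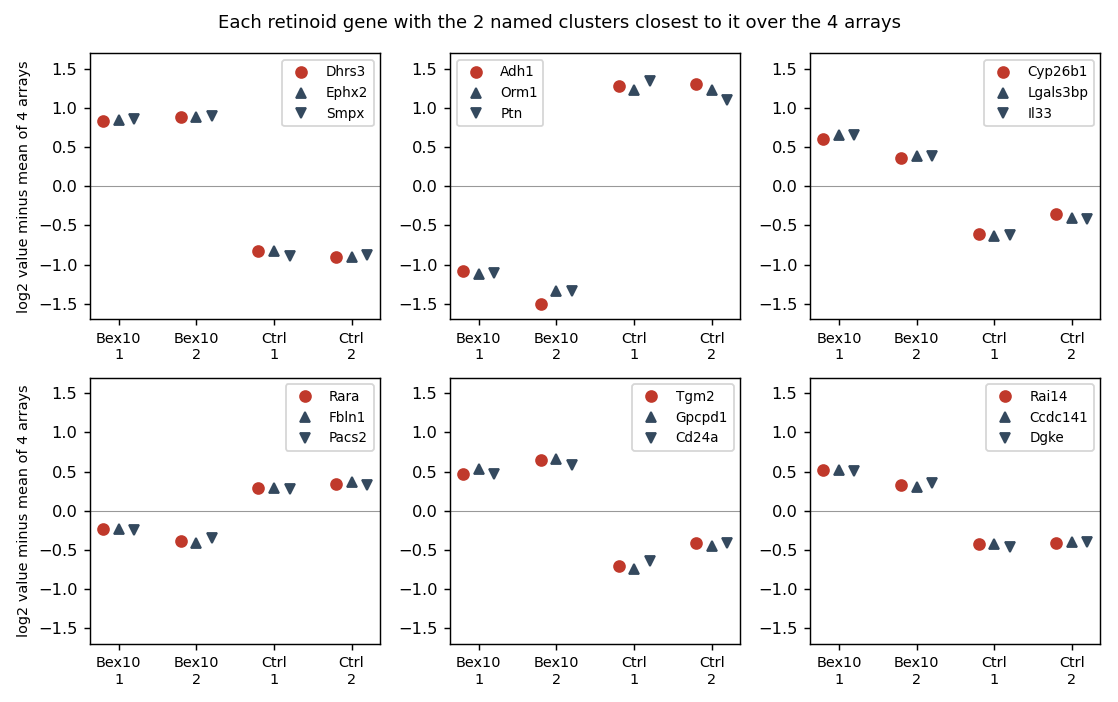
Log2 values minus the mean of the 4 arrays (y axis) on each array for the 6 retinoid genes (red circles) and the 2 named clusters closest to each (dark triangles). Points of Dhrs3 and Ephx2 stand at nearly equal heights on each array, at a distance of 0.00768, and Ptn, the second closest to Adh1, is at 0.133. Distances also depend on the size of the difference, so they are not compared between the retinoid genes.

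Markers of several cell types differed beside the retinoid genes, and their part in these differences was not tested. A marker was named only if it had a cluster in the authors' deposited table, so the same contrast chose every named marker. Of 12 muscle markers 4 were named (Ckm, Myh3, Myl1 and Tnni1), all higher, with mean log2 values of 11.47 and 11.26 with Bex and 10.55 and 10.38 in Ctrl. Of 8 adipocyte markers 3 were named (Fabp4, Pparg and Plin1), all higher, with means of 8.81 and 9.04 with Bex and 6.99 and 6.79 in Ctrl. All 3 named of 5 fibroblast markers, Dcn, Cd34 and Ly6a, were lower, with means of 8.01 and 8.05 with Bex and 8.87 and 8.91 in Ctrl. Cox8b, the only named gene of 5 listed for brown fat, had 10.37 and 10.37 with Bex and 9.35 and 9.19 in Ctrl. Cd14, the only named gene of 4 listed for macrophages, had 7.44 and 7.46 with Bex and 6.35 and 6.74 in Ctrl. C2C12 is a myoblast line, and these lists do not show that cells of the listed types were present. Myod1, Myog and Des, defining genes of the muscle line, were not analysed here. In such RNA from whole dishes, fewer cells of a type and less RNA per cell cannot be told apart.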

How the data were processed

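The authors deposited log2 values made by RMA with core exons in Affymetrix Expression Console, per the labels. The deposited comparison table, made in Transcriptome Analysis Console according to the series' design text, holds log2 averages, a signed fold change (a score), ANOVA p-values and FDR p-values per the file headers, for 559 clusters. These are not all clusters at 1.5-fold or more: every ANOVA p-value among them is at most 0.049968. The build and annotation release behind the authors' tables, and their software versions, are not given in the labels or file headers. Promoter sequences and gene order came from RefSeq, GRCm38.p6. The 6 members and all gene lists were chosen with earlier results of these data known. Arrays were grouped by title. Differences and SEs came from limma 3.58.1 in R 4.3.3 over all 35557 clusters, without filter or covariate, with Benjamini-Hochberg adjustment, and the fits were tested on simulated data. RMA evens out array levels, which would hide a change shared by most transcripts. Precision is limited by 2 arrays a group. Alternatives were a variance trend, a replicate block, other scalings, a filter on dim clusters, each array left out, and the authors' averages. Genes were named only through the authors' table: the 6 members, listed genes with a cluster there, the 2 closest clusters to each member, and rows near the threshold. Deviations of same-numbered arrays correlated at 0.0079 across clusters. Python 3.11.15 with pandas 2.3.3, numpy 2.4.6 and matplotlib 3.10.9 drew lists and plots.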

Additional observations from a re-analysis of the deposited data

How the results depend on the processing

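All 6 retinoid genes kept their direction in every setting run, and the authors' averages, a median shift, a further quantile normalization and the replicate block moved none by more than its replicate SD. With each array left out, the log2 difference ran from 1.69 to 1.76 for Dhrs3, 0.83 to 1.10 for Cyp26b1, 0.97 to 1.26 for Tgm2, 0.76 to 0.94 for Rai14, -0.70 to -0.55 for Rara and -2.79 to -2.37 for Adh1. In the pairs of arrays numbered 1 and 2 it was 1.66 and 1.79 for Dhrs3, 1.22 and 0.71 for Cyp26b1, 0.95 and 0.75 for Rai14, -0.52 and -0.73 for Rara, and -2.35 and -2.81 for Adh1. Without Bex10 array 2 the -0.55 of Rara was under 1.5-fold. The count of clusters called, 0 in the fit as described, stayed at 0 with the replicate block, a median shift, quantile normalization and each array left out. It was 427 with the variance trend, 158 with the replicate block and the trend together, 105 with the dimmest 30% left out and 859 with that and the trend. It was 80 at an adjusted p of 0.1, 2292 at 1.5-fold with no test, and between 0 and 32 when 1 array was dropped from the trend fit (23 without Bex10 array 1, 32 without Bex10 array 2, 0 without either Ctrl array), settings added after the data were seen in which the lone array of a group is assumed to vary like the other group. Among the 14 named retinoid list genes, the count called was 0 as described and with the replicate block, 9 with the trend, 5 with block and trend, 5 with the filter, 13 with filter and trend, and between 0 and 4 when 1 array was dropped from the trend fit, while 10 were at 1.5-fold or more in both pairs. The cause of these shifts was not tested. All 14 genes came from the authors' deposited table and so were chosen by the same contrast, which favours high counts among them. Over all clusters 1.20% were called with the trend, 0.444% with block and trend, and 2.91% were at 1.5-fold or more in both pairs. The filtered fits tested only the clusters left without the dimmest 30%, so their 105 and 859 are not counts out of all clusters. The same-numbered arrays are not shown to share a batch, so the block is given only as a setting.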

Other observations

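In the RefSeq gene order of GRCm38.p6, 2 of the 6 retinoid genes stood next to another gene of the authors' deposited table, against 61 of the 522 genes of that table found among protein-coding genes (11.7%). Dysf, which encodes the membrane repair protein dysferlin, is adjacent to Cyp26b1 on chromosome 6 and had log2 values of 7.28 and 7.29 with Bex and 6.28 and 6.46 in Ctrl. Its log2 difference was 0.92 ± 0.10 (SE, n = 2 per group), of the same sign as the 0.97 of Cyp26b1. C1qtnf3, a secreted protein of the C1q and TNF related family, is adjacent to Rai14 on chromosome 15 and had 9.68 and 9.47 with Bex and 8.35 and 8.39 in Ctrl, a log2 difference of 1.20 ± 0.11. In both pairs the Bex10 arrays lay above the Ctrl arrays, and neither pair of genes overlaps in RefSeq. The neighbours of Adh1, Adh7 and Adh6a, which belong to the same gene family, were not analysed here. These neighbours were looked up after the values were seen.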
